A study of Mus musculus with 4 samples.

Results

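The genes of calcium release, reuptake and sensing are a list of 42 mouse genes that was read in palmitate-treated and control C2C12 myoblasts. The list was put together by gene role, with earlier results of these data known. C2C12 is an established mouse cell line derived from satellite cells of thigh muscle, and its proliferating cells are called myoblasts. The palmitate cultures received 0.1 mmol/l palmitate, a saturated fatty acid bound to albumin, for 48 h in medium with 5% foetal bovine serum (FBS), and were harvested on day 3 of proliferation. The control cultures received the same amounts of ethanol and albumin without palmitate, also on day 3 of proliferation, although the control label names 10% HS where the treatment protocol names 5% FBS. A total of 4 microarrays were hybridised, hereafter replicate 1 to replicate 4, each with the RNA of 1 palmitate culture in Cy5 (red) and 1 control culture in Cy3 (green), so n = 4 in every comparison. The labels call them biological replicates. All arrays had the same dye orientation, so palmitate and dye cannot be told apart. If the control label holds, palmitate and serum cannot be told apart either. C2C12 is a single line, and each value is a mean over the cells of a culture, in which fewer cells of a type and less RNA per cell cannot be told apart.

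In muscle, calcium is held in the sarcoplasmic reticulum and leaves it through ryanodine receptors and inositol trisphosphate (IP3) receptors. SERCA pumps return it to the store, plasma membrane pumps and the sodium-calcium exchanger extrude it, and mitochondria take up a share. When the store empties, STIM proteins in its membrane open ORAI channels of the cell surface. Calmodulin, its kinases and the phosphatase calcineurin read the cytosolic signal, and calcineurin moves NFAT factors to the nucleus, a pathway known for its part in myogenesis and fibre type.

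Of the 42 genes, 41 had a probe named through its RefSeq accession, and 36 passed the filter on dim probes, which asks for signal well above background on each of the 4 arrays in either channel, and were tested among 13706 genes. Values are log2 ratios of palmitate over control after loess normalization, so that a negative value means less signal with palmitate. A gene is represented by its brightest tested probe, and all 36 tested genes were above background in both channels on every array. The 6 genes not tested included 3 whose probe was above background on 0 arrays in either channel. These were Pln (phospholamban, an inhibitor of SERCA2), Casq1 (the calsequestrin of fast fibres) and Cacna1c (the pore subunit of the cardiac L-type channel). The probe of Sln (sarcolipin, an inhibitor of SERCA1) was above background on 0 arrays in the palmitate channel and on 1 in the control channel. Mcu, the pore of the mitochondrial uniporter, was above background on 3 arrays in the palmitate channel and on 2 in the control channel, and Ryr3 had no named probe.

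Across the series, 61.9% to 70.6% of probes were above background in the palmitate channel and 57.5% to 64% in the control channel. The log2 ratios of replicates 2 to 4 correlated at 0.68 to 0.77 across tested probes, whereas those of replicate 1 correlated with the others at -0.16 to 0.06, as a description over probes that share arrays. The 1 probe for large-subunit ribosomal RNA (Rn28s1) had a log2 ratio of 1.42 on replicate 1, against -2.49, -2.14 and -3.35 on replicates 2, 3 and 4. Replicate 1 thus stood apart, and results are given with and without it where a call depended on it. It was singled out from these same data, so smaller p-values without it are no independent support. Without it, 9.84% of all tested genes were lower and 8.78% higher at a limma adjusted p under 0.05. What part the difference of replicate 1 played in the results was not tested. Markers of muscle were detected in these cultures, and so were some of other cell types. All 9 myoblast markers were tested, although Pax7 and Cav3 were above background on only 2 arrays in the control channel. At an unadjusted limma p under 0.05, 13.4% of all tested genes were lower with palmitate and 10.8% higher. Of the 9 myoblast markers, 2 were higher and 0 lower at that level. They were Myod1, a determination factor (0.24 on the log2 scale), and Ncam1 (0.37), whose dimmer probes averaged 0.21 and 0.04. Of 13 markers of differentiated muscle, 11 were tested and 3 were higher at that level, Myog among them (0.30), with 0 lower. The means of the 11 lay on both sides of 0, with 6 above and 5 below. Myom1, at -0.18, was below 0 on 4 of 4 arrays. Adipoq, which defines adipocytes, was above background on 0 arrays, and 3 of 7 adipocyte, 3 of 6 macrophage and 2 of 4 endothelial markers were tested, with 0 lower and 0 higher at that level. Some of these were bright. The macrophage marker Itgam had a mean log2 signal of 14.81 in control cultures by its brightest probe, but 7.99 and 7.77 by its others. The endothelial marker Kdr had 11.24 by its tested probe, beside 10.41 for Myod1. Its other probe, at 6.96, was above background on 0 arrays in either channel. Signals of different probes do not rank the amounts of their transcripts.

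After Benjamini-Hochberg adjustment over the 24161 tested probes, limma called 0 of the 36 calcium genes and 0 of all 13706 genes (0%), with a smallest adjusted p of 0.108 in the whole table. The methods' unpaired test also called 0 of the 36 after adjustment (0.0657% of all genes), with 3 lower (11.5% of all genes) and 6 higher (7.88% of all genes) before it. At an unadjusted p under 0.05, 3 of the 36 were lower with palmitate (Stim1, Atp2b1 and Cacna2d1), where 13.4% of all tested genes were lower, and 4 were higher (Ppp3ca, Letm1, Calm3 and Atp2a2), where 10.8% of all tested genes were higher. These shares were near those of all genes. The ratio was below 0 on all 4 arrays for 6 calcium genes (16.7% of all genes) and above 0 on all 4 for 7 (15.6% of all genes). The median of the 36 means was -0.042, beside 0.0013 for all tested genes, and lay between -0.058 and 0.080 over the alternatives, so it had no settled sign. By array, the medians were -0.050, 0.00052, -0.0027 and 0.043. The range ran from -0.71 (Stim1) to 1.10 (Ppp3r1), and these 2 genes were the only ones of the 36 with a mean fold of 1.6 or more, which 2.44% of all genes reached. The palmitate and control cultures did not overlap in log2 signal for 2 genes that were lower (8.36% of all genes) and for 3 that were higher (5.35% of all genes).

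**Figure D1:**
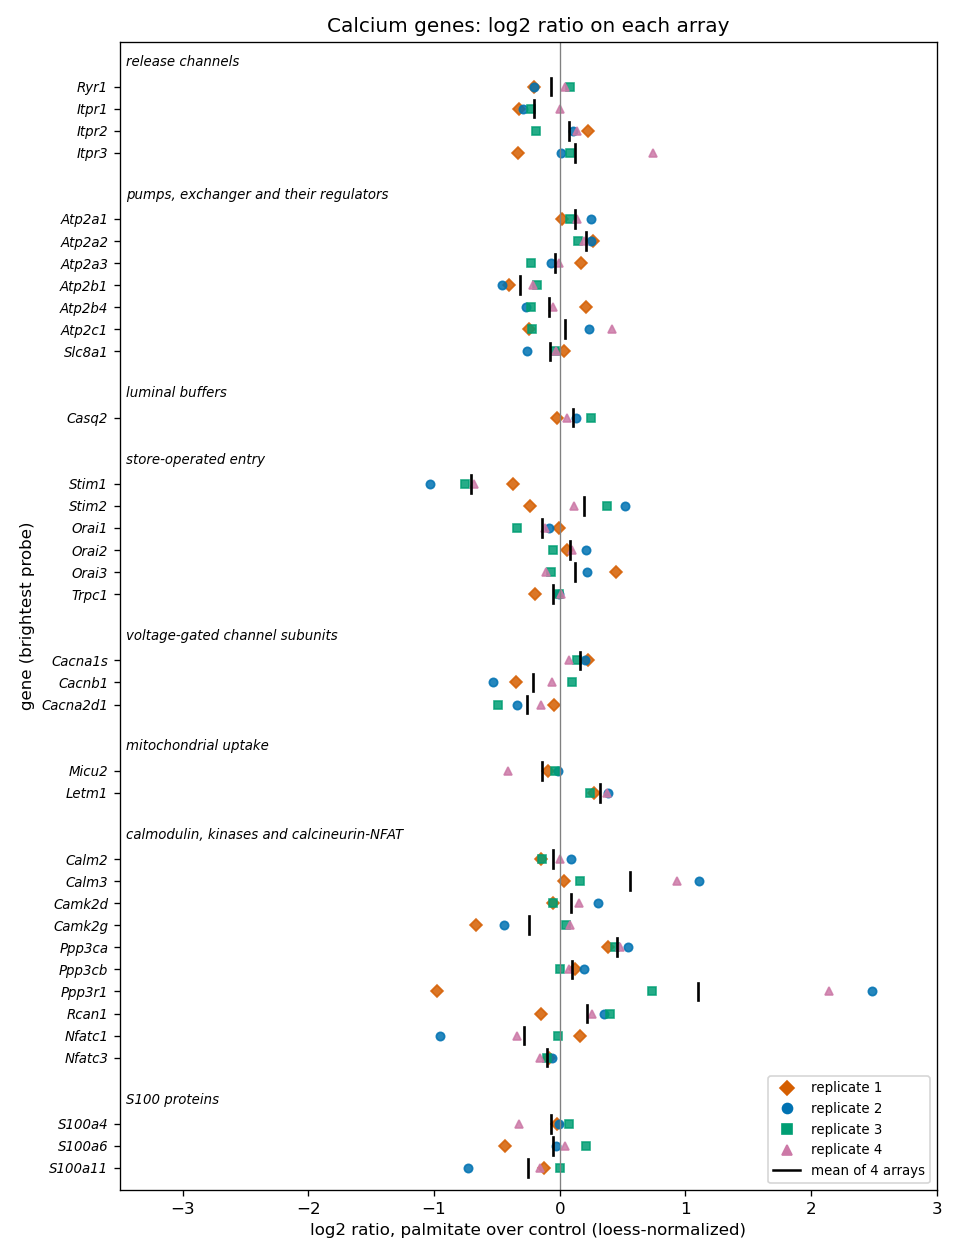
Palmitate over control as a log2 ratio (x axis) on each of the 4 arrays for the 36 tested calcium genes (y axis), grouped by role. Symbols are arrays, black bars are means of 4 arrays. Stim1 lies left of 0 on every array, Ppp3ca and Letm1 lie right of 0 on every array, and Ppp3r1 has the widest spread, with replicate 1 at -0.98 and replicate 2 at 2.49.

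The genes of store-operated entry held the lowest member. Stim1, the calcium sensor of the store membrane, had log2 signals of 11.58, 10.87, 11.14 and 11.15 in palmitate cultures of replicates 1 to 4, against 11.95, 11.90, 11.89 and 11.84 in control cultures. Every palmitate culture was below every control culture. The mean ratio was -0.71 ± 0.27 (SD, n = 4; 1.64-fold lower, limma adjusted p = 0.118, 95% interval -0.99 to -0.42). A further Stim1 probe gave -0.35, -0.97, -0.74 and -0.66, with a mean of -0.68 ± 0.26 (adjusted p = 0.118), so both probes placed palmitate below control on 4 of 4 arrays. Replicate 1 had the smallest difference in both. Without replicate 1 the mean was -0.82 and the limma adjusted p 0.00566, and over all alternatives the adjusted p lay between 0.00566 and 0.533.

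Stim2, the sensor of milder store depletion, was not lower. Its ratios were -0.24, 0.52, 0.38 and 0.12, a mean of 0.19 ± 0.33. The difference between Stim1 and Stim2 within an array was -0.13, -1.55, -1.13 and -0.80, below 0 on 4 of 4 arrays. Among the channel subunits at the surface, Orai1 had ratios of -0.01, -0.09, -0.34 and -0.12 (mean -0.14 ± 0.14), Orai2 of 0.06, 0.21, -0.05 and 0.10 (mean 0.08 ± 0.11) and Orai3 of 0.45, 0.22, -0.07 and -0.11 (mean 0.12 ± 0.26). Palmitate and control cultures overlapped for all 3. By their brightest probes, Orai1 was below Orai2 and below Orai3 within each of the 4 arrays, by means of -0.22 ± 0.11 and -0.26 ± 0.19. A dimmer Orai1 probe gave 0.14, -0.20, 0.03 and -0.16 (mean -0.05 ± 0.16). That probe was above Orai2 on replicates 1 and 3 and above Orai3 on replicate 3, so the order rests on the probe read. Trpc1, a cation channel of the surface, had a mean of -0.05 ± 0.10.

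Stim1 and Letm1, which differ in direction, are shown with the 250 bases before the annotated start, because both windows hold GC boxes (GGGCGG, the binding motif of Sp factors). Sequences were taken from RefSeq (build GRCm38.p6), in which 34 of the 42 genes matched with 41 windows in all. The Stim1 window lies at chr7:102267569-102267818 on the plus strand and the Letm1 window at chr5:33782718-33782967 on the minus strand. Both are written 5′ to 3′ along the gene, with GGGCGG on either strand in capitals.
Stim1: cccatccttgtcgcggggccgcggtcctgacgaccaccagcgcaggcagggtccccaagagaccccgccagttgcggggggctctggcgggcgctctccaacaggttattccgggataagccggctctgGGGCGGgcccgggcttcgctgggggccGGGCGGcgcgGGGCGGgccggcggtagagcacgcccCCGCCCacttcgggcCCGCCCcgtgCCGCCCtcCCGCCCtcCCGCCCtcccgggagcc
Letm1: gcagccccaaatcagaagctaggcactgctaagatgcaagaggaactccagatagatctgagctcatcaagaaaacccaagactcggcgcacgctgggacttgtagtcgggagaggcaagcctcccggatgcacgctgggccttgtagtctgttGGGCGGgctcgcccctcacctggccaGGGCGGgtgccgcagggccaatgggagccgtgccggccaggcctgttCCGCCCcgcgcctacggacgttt
The Stim1 window held 8 GC boxes and the Letm1 window 3. GGGCGG occurred on either strand in 27 of the 41 windows of calcium genes (65.9%) and in 32.7% of all 32851 windows of the same length. The match is a description of the letters and not of a bound site, and a relation of the motif to the ratios was not tested.

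Release channels had small differences. Itpr1, an IP3 receptor, had log2 signals of 10.78, 10.72, 10.83 and 11.03 in palmitate cultures, against 11.10, 11.01, 11.05 and 11.02 in control cultures. Palmitate was below control on replicates 1 to 3 and level with it on replicate 4, and the mean ratio was -0.21 ± 0.15 (limma adjusted p = 0.239). Itpr2 averaged 0.07 ± 0.18. Itpr3 averaged 0.12 ± 0.45, with replicate 4 at 0.74 and replicate 1 at -0.33. Itpr1 was below Itpr2 within each array, by a mean of -0.28 ± 0.23. Ryr1, the release channel of skeletal muscle, had ratios of -0.20, -0.20, 0.08 and 0.04, which fall on both sides of 0 (mean -0.07 ± 0.16, 95% interval -0.29 to 0.15).

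Among the pumps, Atp2a2 (SERCA2) was higher with palmitate on 4 of 4 arrays. Its log2 signals were 11.10, 11.23, 11.06 and 11.03 in palmitate cultures, against 10.84, 10.98, 10.92 and 10.84 in control cultures. The cultures did not overlap, and the mean ratio was 0.21 ± 0.05 (1.16-fold higher, limma adjusted p = 0.185). A dimmer probe of Atp2a2 gave 0.15 ± 0.13, above 0 on 3 of 4 arrays. Atp2a1 (SERCA1, the pump of fast fibres) had ratios of 0.02, 0.25, 0.08 and 0.14, above 0 on 4 of 4 arrays, and Atp2a3 averaged -0.03 ± 0.17. By the brightest probes, Atp2a2 exceeded Atp2a3 within each array by a mean of 0.25 ± 0.13. On replicate 1 the dimmer Atp2a2 probe, at -0.03, was below Atp2a3, at 0.17.

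Atp2b1, the plasma membrane pump PMCA1, had log2 signals of 10.67, 10.70, 10.81 and 10.62 in palmitate cultures, against 11.07, 11.15, 10.99 and 10.83 in control cultures. Every palmitate culture was below every control culture, and the mean ratio was -0.31 ± 0.14 (limma adjusted p = 0.137). A dimmer probe named by the same accession gave -0.20, 0.55, 0.64 and 0.36, with a mean of 0.34 ± 0.38 (adjusted p = 0.248). The probes therefore gave opposite directions on replicates 2 to 4, and the direction of Atp2b1 is not settled by these arrays. The mean of both was 0.01. Atp2b4 averaged -0.09 ± 0.22, with a dimmer probe at -0.17 ± 0.13 and below 0 on 4 of 4 arrays. Atp2c1, the Golgi calcium pump, averaged 0.05 ± 0.33 and Slc8a1, the sodium-calcium exchanger, -0.07 ± 0.13, both with arrays on either side of 0. Casq2, the calsequestrin that was detected here, averaged 0.10 ± 0.11.

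**Figure D2:**
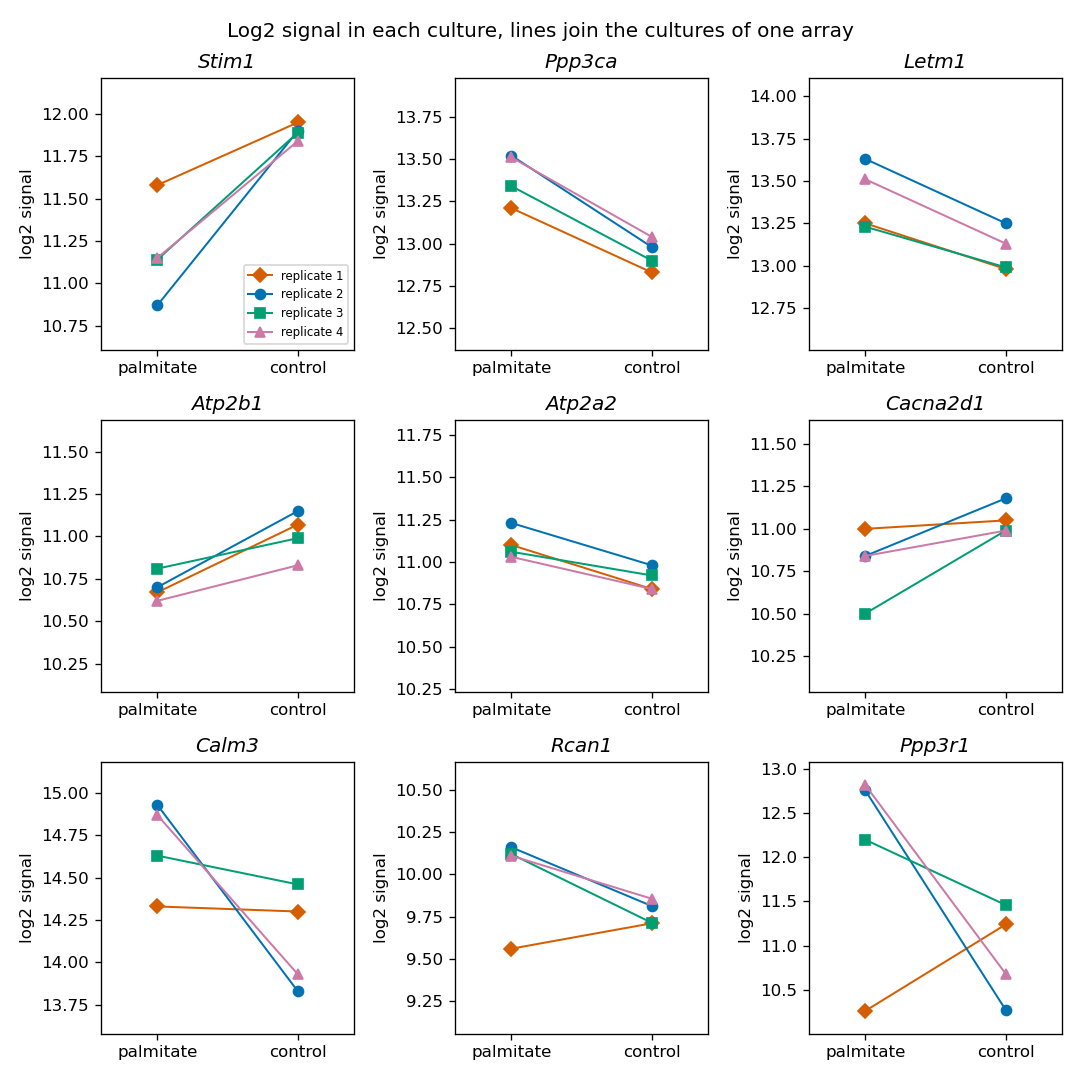
Log2 signal (y axis, its own range in each panel) of 9 calcium genes in the palmitate culture and the control culture of each array (x axis), with a line joining the cultures of 1 array. Stim1 and Atp2b1 lie below control, and Ppp3ca and Atp2a2 above it, with no overlap of cultures, whereas replicate 1 runs against the other arrays for Rcan1 and Ppp3r1.

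Voltage-gated channel subunits did not share a direction. Cacna2d1, the auxiliary α2δ1 subunit, had ratios of -0.04, -0.34, -0.49 and -0.15 (mean -0.26 ± 0.20, limma adjusted p = 0.208). A dimmer probe for another of its transcripts gave -0.31, -0.79, -0.40 and -0.63 (mean -0.53 ± 0.22, adjusted p = 0.118). Both probes were below 0 on 4 of 4 arrays, and the cultures overlapped for both. Cacna1s, the voltage sensor of skeletal muscle, had log2 signals of 8.33, 8.34, 8.26 and 8.21 in palmitate cultures, against 8.11, 8.14, 8.12 and 8.13 in control cultures. The cultures did not overlap, with a mean ratio of 0.16 ± 0.07 (adjusted p = 0.281). Cacnb1, the β1 subunit, averaged -0.21 ± 0.28.

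Letm1, a protein of the inner mitochondrial membrane that carries cations, had log2 signals of 13.25, 13.63, 13.23 and 13.51 in palmitate cultures, against 12.98, 13.25, 12.99 and 13.13 in control cultures. The cultures overlapped between arrays, but palmitate exceeded control within each array, by 0.27, 0.38, 0.24 and 0.38 (mean 0.32 ± 0.07, limma adjusted p = 0.13). Without replicate 1 the mean was 0.34 and the adjusted p 0.0435, in a range of 0.0264 to 0.542 over all alternatives. Micu2, a gatekeeper of the uniporter, had ratios of -0.09, -0.02, -0.04 and -0.41, below 0 on 4 of 4 arrays with most of its mean of -0.14 ± 0.18 on replicate 4.

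The calcineurin genes differed in spread between arrays. Ppp3ca, the α catalytic subunit, had log2 signals of 13.21, 13.52, 13.34 and 13.51 in palmitate cultures, against 12.83, 12.98, 12.90 and 13.04 in control cultures. Every palmitate culture was above every control culture, with ratios of 0.38, 0.54, 0.44 and 0.48 (mean 0.46 ± 0.07, 1.38-fold higher, limma adjusted p = 0.118, 95% interval 0.28 to 0.64). Without replicate 1 the mean was 0.49 and the adjusted p 0.0143, in a range of 0.0143 to 0.533 over all alternatives. Ppp3cb, the β catalytic subunit, averaged 0.10 ± 0.08. Ppp3ca exceeded it within each array by 0.26, 0.35, 0.43 and 0.40.

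Ppp3r1, the regulatory subunit calcineurin B, had log2 signals of 10.26, 12.76, 12.20 and 12.82 in palmitate cultures, against 11.24, 10.27, 11.46 and 10.68 in control cultures. Replicate 1 was below its control and the other arrays were above theirs, with ratios of -0.98, 2.49, 0.74 and 2.15. The mean of 1.10 ± 1.58 had a limma adjusted p of 0.293 and a 95% interval of -0.22 to 2.42. Without replicate 1 the mean was 1.79 and the adjusted p 0.0119, while over all alternatives the adjusted p lay between 0.000141 and 0.76. It had 1 tested probe.

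Rcan1, an inhibitor of calcineurin that NFAT itself induces, had log2 signals of 9.56, 10.16, 10.12 and 10.11 in palmitate cultures, against 9.71, 9.81, 9.71 and 9.86 in control cultures. Palmitate exceeded control on replicates 2 to 4 and not on replicate 1 (mean ratio 0.22 ± 0.25, limma adjusted p = 0.313). Without replicate 1 the mean was 0.34 and the adjusted p 0.0422, the lowest over all alternatives, of which the highest was 0.732. The 2 start windows of Rcan1 are shown because it is the direct target of the pathway among the members, and its internal start is known as the one that answers calcineurin. Both lie on the minus strand, the upstream start at chr16:92466170-92466419 and the internal start at chr16:92400079-92400328, and GGAAA, the core of an NFAT site, is in capitals on either strand.
Rcan1 upstream start: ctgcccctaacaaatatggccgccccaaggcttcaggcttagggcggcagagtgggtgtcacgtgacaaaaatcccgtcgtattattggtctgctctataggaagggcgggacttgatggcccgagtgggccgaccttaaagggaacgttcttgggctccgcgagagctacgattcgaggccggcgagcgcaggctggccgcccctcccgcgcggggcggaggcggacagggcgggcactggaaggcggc
Rcan1 internal start: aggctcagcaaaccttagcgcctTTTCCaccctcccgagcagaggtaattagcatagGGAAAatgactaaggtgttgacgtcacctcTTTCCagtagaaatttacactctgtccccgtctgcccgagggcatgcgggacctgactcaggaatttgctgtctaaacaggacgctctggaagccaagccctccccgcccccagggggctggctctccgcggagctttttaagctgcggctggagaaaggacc
GGAAA occurred 0 times in the upstream window and 3 times in the internal window. It was present in 17 of the 41 windows of calcium genes (41.5%) and in 55.6% of all windows. The array probe is named by an accession for the gene and was not assigned to a start here.

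The NFAT factors themselves showed no common difference. Nfatc1 had ratios of 0.16, -0.95, -0.02 and -0.34 (mean -0.29 ± 0.49), and a dimmer probe for another of its transcripts averaged 0.01 ± 0.11. Nfatc3 had ratios of -0.09, -0.06, -0.10 and -0.16, small but below 0 on 4 of 4 arrays (mean -0.10 ± 0.04, limma adjusted p = 0.449).

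The calmodulin genes, which encode the same protein, gave values that depended on the probe. For Calm3 the brightest probe had log2 signals of 14.33, 14.93, 14.63 and 14.87 in palmitate cultures, against 14.30, 13.83, 14.46 and 13.93 in control cultures, with a mean ratio of 0.56 ± 0.54 (limma adjusted p = 0.186). Most of this stood on replicates 2 and 4, with 1.10 and 0.94, and without replicate 1 the mean was 0.74 and the adjusted p 0.033 (0.033 to 0.601 over all alternatives). The other Calm3 probe averaged -0.02 ± 0.25. For Calm2 the brightest probe averaged -0.05 ± 0.12, and the other probe had ratios of 0.02, 0.79, 0.62 and 0.75 (mean 0.54 ± 0.36, adjusted p = 0.131). Each gene thus had 1 probe near 0 and 1 probe above it, and a direction for either gene rests on the probe read.

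Of the calmodulin-dependent kinases, Camk2d had 3 tested probes with means of 0.09 ± 0.17, 0.27 ± 0.21 and 0.43 ± 0.26, all above 0, of which the dimmer ones were above 0 on 4 of 4 arrays (limma adjusted p = 0.206 and 0.132). Camk2g had ratios of -0.67, -0.44, 0.05 and 0.08 (mean -0.24 ± 0.37), with replicates 1 and 2 below 0 only.

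The S100 proteins are small calcium-binding proteins of the cytosol. S100a4 averaged -0.07 ± 0.17 by its brightest probe, whereas its other probe had ratios of 0.11, 0.68, 0.54 and 0.43 (mean 0.44 ± 0.24, limma adjusted p = 0.127) with no overlap of cultures. S100a6 had ratios of -0.44, -0.03, 0.21 and 0.04 (mean -0.05 ± 0.27), and S100a11 of -0.12, -0.73, 0.00 and -0.16 (mean -0.25 ± 0.32). No direction was common to the arrays for either.

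Of the 36 tested genes, 12 had more than 1 tested probe. In 7 of these all probes lay on one side of 0, and in 5 they lay on both sides (Atp2b1, Calm2, Calm3, Nfatc1 and S100a4). Among all 3374 genes with several tested probes, 59.5% had all probes on one side, so disagreement between probes was as common elsewhere on the array. The genes with several tested probes for which all probes and all 4 arrays gave one direction were Stim1 and Cacna2d1, both below 0.

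**Figure D3:**
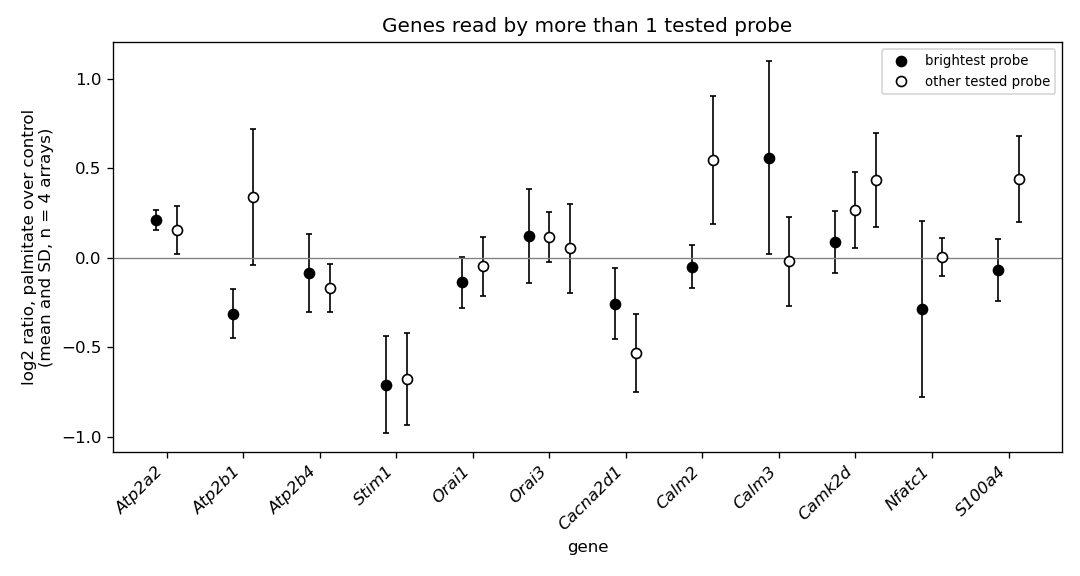
Palmitate over control as a log2 ratio (y axis; mean and SD over 4 arrays) for each tested probe of the 12 calcium genes with more than 1 tested probe (x axis). Filled circles are the brightest probe and open circles the others. The 2 probes of Stim1 lie together at -0.71 and -0.68, whereas the probes of Atp2b1 lie at -0.31 and 0.34.

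Related genes were also set against each other within the arrays, which cancels what an array shares. Of 18 pairs, read by their brightest probes, 7 had a difference of one sign on all 4 arrays, the widest being Stim1 minus Stim2 with a mean of -0.90 ± 0.60. Calm2 minus Calm3 averaged -0.61 ± 0.42 by these probes, but the other probes, with mean ratios of 0.54 (Calm2) and -0.02 (Calm3), stand in the opposite order. With dimmer probes of Orai1 and Atp2a2, Orai1 minus Orai2, Orai1 minus Orai3 and Atp2a2 minus Atp2a3 did not keep the same sign on all 4 arrays. Pairs of a family share genes, and the share among other gene pairs was not computed. The count of 7 is therefore a description only. With 4 arrays, an exact two-sided sign-flip test cannot give a p below 0.13, so none of these pairs could pass 0.05. Replicate 1 had the sign opposite to the mean of replicates 2 to 4 in 12 of the 36 calcium genes (33.3%) and in 46.6% of all tested genes. Without replicate 1, limma called 1 calcium gene lower (Stim1, where 9.84% of all genes were lower) and 5 higher (Letm1, Calm3, Ppp3ca, Ppp3r1 and Rcan1, where 8.78% of all genes were higher).

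**Figure D4:**
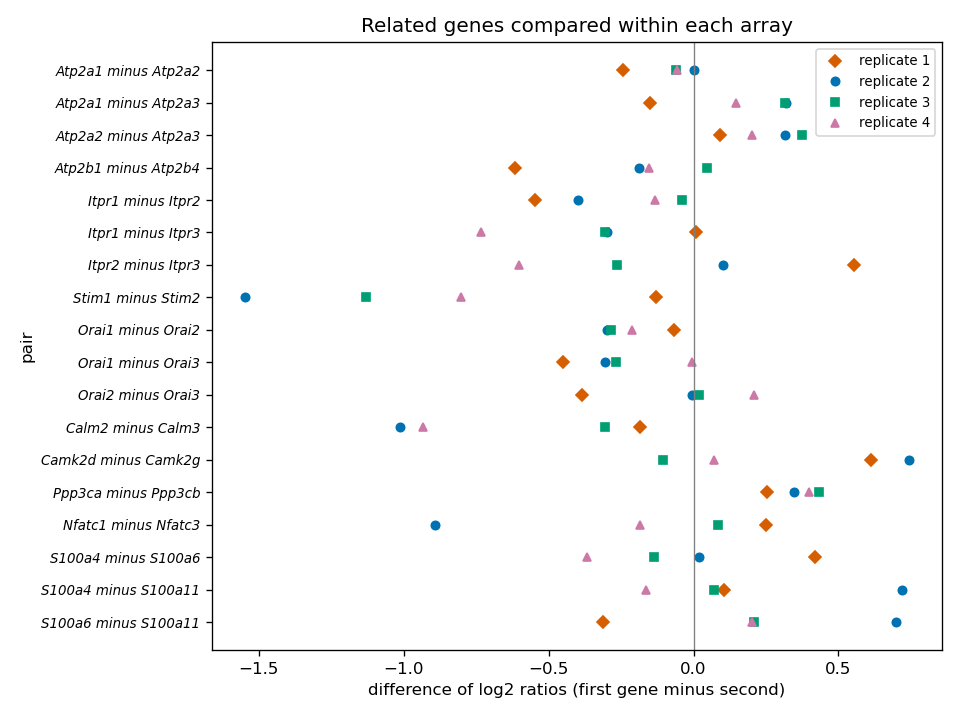
Difference between the log2 ratios of 2 related genes (x axis, first gene minus second) on each of the 4 arrays, for 18 pairs (y axis). Stim1 minus Stim2 and Ppp3ca minus Ppp3cb keep one side of 0 on every array, at -0.13 to -1.55 and 0.26 to 0.43, whereas pairs such as Nfatc1 minus Nfatc3 scatter around 0.

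Beyond these genes, 162 further genes of calcium handling were listed by role, of which 113 were tested. At an unadjusted p under 0.05, 10 were lower and 8 higher, with limma calling 0 after adjustment, beside 13.4% lower and 10.8% higher among all tested genes, so both counts were under the shares of all genes. Their median was -0.025. Of 14 tested genes for other cation channels of the surface and of lysosomes, 4 were lower and 1 higher. P2rx4, an ATP-gated channel, had ratios of -0.67, -0.75, -0.30 and -0.51 (mean -0.56 ± 0.20, limma adjusted p = 0.118), and Mcoln1, a lysosomal release channel, averaged -0.56 ± 0.29. Of 12 tested genes of mitochondrial uptake, Smdt1 (EMRE, a subunit needed by the uniporter) had ratios of -0.46, -0.72, -0.55 and -0.41 (mean -0.53 ± 0.13, adjusted p = 0.118), and Mcur1, a uniporter regulator, averaged 0.28 ± 0.18. Smdt1 was lower on every array while Letm1 was higher on every array.

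For the remaining roles the genes with the lowest unadjusted p are given, and their counts are read beside the same shares of all genes. Of 11 tested release genes 3 were higher and 0 lower, among them Tmem38a, a counter-ion channel of the reticulum (mean 0.35 ± 0.14), and Ahcyl1, which binds IP3 receptors (0.36 ± 0.23). A dimmer probe of Ahcyl1 averaged 0.16 ± 0.32. Of 13 tested voltage-gated channel genes 2 were lower and 0 higher, Stac3, needed for excitation-contraction coupling (-0.55 ± 0.28, limma adjusted p = 0.118), and the subunit Cacnb3 (-0.43 ± 0.42). Of 11 luminal genes 2 were higher, Calu (0.48 ± 0.40) and Calr3 (0.32 ± 0.27), which bind calcium or chaperone proteins in the reticulum. The exchanger Slc24a5 averaged -0.50 ± 0.27 as the 1 of 6 pump and exchanger genes past that level, and S100a1 averaged -0.31 ± 0.08 as the 1 of 7 tested S100 genes. A further S100a1 probe averaged -0.10 ± 0.15, with 2 arrays on each side of 0. Of 20 genes around calmodulin and calcineurin, Mef2a, a muscle transcription factor, averaged 0.35 ± 0.19, although its dimmer probe averaged -0.32 ± 0.32, and the kinase Camk1 averaged -0.24 ± 0.12. None of the 3 tested store-operated genes passed that level, nor did any of the 14 tested genes of IP3 production and breakdown or the 2 tested cytosolic buffers.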

How the data were processed

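The submitters' processing notes name Agilent Feature Extraction 10.7.3.1, and 1000 ng of total RNA was labelled per culture. In the files that the authors deposited, the median signals of spot and background are raw intensity, and the processed intensity had its background subtracted and its dyes normalized. A deposited column gives the log10 ratio of red over green, and the authors' table holds log2 ratios, whose scale and direction were checked against the processed signals.

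Here the median signals were corrected by normexp (offset 50) and loess-normalized within arrays in limma 3.58.1 (R 4.3.3, statmod 1.5.0), control spots were left out and spots of a probe averaged. Log2 signals by culture are values after loess and scaling of average intensity between arrays. Of 39429 probes, 26055 were named by RefSeq accession, and 24161 had signal well above background on each of the 4 arrays in either channel. The mean log2 ratio was set against 0 by limma's lmFit and eBayes, in which the array pairs the cultures, with Benjamini-Hochberg adjustment over all tested probes. The fit was also run on simulated arrays with noise taken from replicates 2 to 4. It recovered 100% of changes of 1 and of 2 on the log2 scale, with 11 false calls. All simulated probes had the same noise level, and no simulated array stood apart as replicate 1 does. The simulation therefore cannot show how the fit behaves on these 4 arrays. The number of arrays limits the precision.

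The members and the lists were chosen with earlier results of these data known. All members are named. Of the other calcium genes, up to 2 in each role with the lowest unadjusted p under 0.05 are named, and markers by defining genes, detection or signal. Promoter windows were read from RefSeq tables (GRCm38.p6). Alternatives changed background correction, dye normalization, filters, test, pairing, weights, variance model, probe choice, adjustment, source of values and replicates.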

Additional observations from a re-analysis of the deposited data

Results flagged for a closer look

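Each of the 36 tested calcium genes was examined for 1 array far from the other 3. Trpc1, a cation channel of the surface, stood out, with a log2 ratio of -0.19 on replicate 1 while replicates 2 to 4 lay at -0.01, -0.01 and 0.01. The gap was 0.915 of the whole range. Chance marks about 1 in 20 groups in this way. The flagged value was near the floor. The Trpc1 signal in the palmitate culture of replicate 1 was 7.10, while the untested Sln lay between 6.973 and 7.165 in palmitate cultures. Over all alternatives the mean ratio of Trpc1 lay between -0.45 and 0.03.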

How the results depend on the processing

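Over 647 combinations of a calcium gene and an alternative, 613 kept their side of the median of all tested genes and of the adjusted threshold, 12 passed the threshold anew and 22 changed side. The count of genes lower at an unadjusted p under 0.05 was 1 with median centring and 1 with channels shifted to their 75th percentile, where the share of all genes also fell, to 4.58% and 4.99%, and 2 to 4 when 1 replicate was left out. The count higher was 2 with the percentile shift (4.92% of all genes) and 2 to 6 when 1 replicate was left out (2 without replicate 2 or 4, with 4.81% and 7.14% of all genes, and 6 without replicate 1, with 17.8%). The count past the adjusted p was 1 with median centring (1.76% of all genes; Ppp3r1, 1.15, adjusted p = 0.000141, where limma gave every probe a common variance), 5 with arrayWeights in limma (15.3% of all genes), and 0 to 6 when 1 replicate was left out, with 6 without replicate 1 (18.6% of all genes) and 0 without replicate 2, 3 or 4. The median was 0.044 without background correction, 0.080 with median centring, 0.025 with the percentile shift, 0.058 with the mean of a gene's probes and -0.058 to 0.0061 when 1 replicate was left out. Without the pairing (no replicate block), 4 genes were lower (13.1% of all genes) and 5 higher (9.47%) at an unadjusted p under 0.05.

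The following genes changed side. Without background correction Ryr1 was at 0.057 and Trpc1 at 0.030, and Ryr1 was at 0.058 from the processed signals and from the deposited table. With median centring Casq2 was at -0.064, Calm2 at 0.14, S100a4 at 0.19 and S100a6 at 0.17, and with the percentile shift they were at -0.12, 0.084, 0.13 and 0.11. S100a6 was at 0.030 with arrayWeights. With the mean of a gene's probes Atp2b1 was at 0.013, Calm2 at 0.25 and S100a4 at 0.19. With 1 replicate left out, S100a6 lay between -0.14 and 0.075, Atp2c1 lay between -0.078 and 0.14, Atp2a3 lay between -0.10 and 0.031, Itpr3 lay between -0.081 and 0.28 and S100a4 lay between -0.12 and 0.015. Sizes also moved for some dim genes. Over all alternatives the mean lay between -0.435 and -0.012 for Slc8a1, between -0.60 and -0.10 for Cacnb1 and between -0.27 and 0.058 for Ryr1. The cause of these changes was not tested. Dye and treatment share 1 orientation, 4 arrays set the precision, and 6 of the 42 genes were not measured well enough to test.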
